A study of Mus musculus with 18 samples.

Results

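The 42 genes described here belong to the unfolded protein response and the integrated stress response. They were chosen by gene name from the 78317 genes of the table, and fall into 8 regulators, 13 targets of the transcription factor ATF4, 14 chaperones of the endoplasmic reticulum (ER) and 7 genes of ER-associated degradation. All 42 passed the filter on low counts, as did 16544 of the 78317 genes in all. The name Ddit3 stands on 2 rows. The row ENSMUSG00000116429 held 22 counts over all libraries and was not tested, so every Ddit3 value is from ENSMUSG00000025408.

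Misfolded protein in the ER is sensed by the membrane proteins PERK (Eif2ak3), IRE1 (Ern1) and ATF6. IRE1 splices the message of Xbp1, and XBP1 and ATF6 raise chaperones and degradation genes, whereas PERK phosphorylates the translation factor eIF2. GCN2 (Eif2ak4), a sensor of uncharged transfer RNA, acts on the same factor, which slows translation in general but favours translation of ATF4, so that ATF4 activity is set largely at the level of protein. ATF4 in turn raises genes of amino acid synthesis and uptake and the feedback genes Trib3, Ddit3 and Ppp1r15a. Cells that make much secreted or matrix protein depend on the chaperone arm, and growing cells depend on the amino acid supply that ATF4 targets provide.

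RNA was sequenced from kidneys of wild-type CD1 mice at embryonic day 14. The explants were exposed for 4 hours to an AAV2 vector and kept for 72 hours in a gel of collagen I and matrigel. All 3 vectors carried mCherry and paired mir30 shRNA cassettes under the ubiquitous CAG promoter, directed at Mylk (Mylk-shRNA), at Rock1 and Rock2 (Rock1/2-shRNA) or at a shuffled sequence (scramble-shRNA). Cultures of a vector and litter were pooled, digested with trypsin and collagenase, and sorted by mCherry: the brightest 25% of cells formed the positive fraction and the dimmest 50% the negative one. Both fractions of a culture had therefore met the same vector, and mCherry-negative cells are not untreated cells. With 3 litters this gave 9 pooled cultures and 18 libraries, 3 in each of 6 groups of vector and fraction.

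Library totals ranged from 3121624 to 12170830 counts, with a median of 4197378 in the positive and 10915604 in the negative fraction. Mylk, Rock1 and Rock2 messages did not pass the test for either knockdown vector in either fraction. In the positive fraction, Mylk held 175 ± 10.7 CPM (counts scaled to library size, mean ± SD, n = 3) under its own vector and 197 ± 14.7 CPM under scramble-shRNA. Rock1/2-shRNA libraries of that fraction held 80.2 ± 4.90 CPM of Rock1 and 62.9 ± 6.02 CPM of Rock2, where the scrambled vector had 85.6 ± 13.7 and 71.4 ± 9.12 CPM. Marker genes of cell types differed widely between the fractions, as given beside the results they touch. Markers of nephron progenitors and of stroma were above 0 in the libraries, as were those of the other 6 cell types examined.

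Promoter sequences show how the ATF4 targets and the chaperones differ before any expression value is read. RefSeq promoters (build GRCm38.p6, 250 bases before to 50 bases after the start of the gene) were matched by symbol to 38 of the 42 genes. No promoter was matched for Atf6, Hyou1, Manf and Derl1. Each window was searched on both strands for 4 motifs known from the field: the CARE element TGATGNAA bound by ATF4 dimers, the ER stress element ERSE (CCAAT and CCACG with 9 bases of any kind between them), its variant ERSE-II (ATTGG and CCACG with 1 base between them) and the UPRE core TGACGTGG. ERSE, ERSE-II and the UPRE core share the letters CCACG, read on one strand or the other, so matches to them can overlap. The following sequences are the 250 bases before the start site, read 5' to 3' on the strand of the gene, with CARE, ERSE and ERSE-II matches in capitals. They were chosen to show both elements in genes that return below: Asns (chr6:7693210-7693459, minus strand), Pycr1 (chr11:120643749-120643998, minus strand), Chac1 (chr2:119350992-119351241, plus strand), Herpud1 (chr8:94386179-94386428, plus strand), Hspa5 (chr2:34771840-34772089, plus strand), Hsp90b1 (chr10:86705445-86705694, minus strand) and Derl3 (chr10:75893148-75893397, plus strand).
Asns: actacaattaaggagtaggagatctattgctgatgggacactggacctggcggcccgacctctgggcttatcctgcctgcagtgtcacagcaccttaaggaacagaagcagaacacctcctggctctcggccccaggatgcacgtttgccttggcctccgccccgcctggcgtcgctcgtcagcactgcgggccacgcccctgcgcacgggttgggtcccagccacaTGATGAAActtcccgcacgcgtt
Pycr1: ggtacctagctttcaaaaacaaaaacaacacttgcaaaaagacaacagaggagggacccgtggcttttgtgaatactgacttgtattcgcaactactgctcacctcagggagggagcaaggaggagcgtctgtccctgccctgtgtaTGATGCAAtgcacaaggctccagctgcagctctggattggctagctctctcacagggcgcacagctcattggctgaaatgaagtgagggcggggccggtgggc
Chac1: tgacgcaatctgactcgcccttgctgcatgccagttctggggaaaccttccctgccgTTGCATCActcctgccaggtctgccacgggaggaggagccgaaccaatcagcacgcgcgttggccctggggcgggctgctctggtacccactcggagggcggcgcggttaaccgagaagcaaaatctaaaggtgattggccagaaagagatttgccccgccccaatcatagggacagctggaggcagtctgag
Herpud1: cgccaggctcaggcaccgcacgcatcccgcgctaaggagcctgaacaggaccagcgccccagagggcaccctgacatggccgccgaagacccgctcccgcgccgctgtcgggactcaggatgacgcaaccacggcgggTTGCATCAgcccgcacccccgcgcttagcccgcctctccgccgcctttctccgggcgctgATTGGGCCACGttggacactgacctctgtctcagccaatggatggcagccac
Hspa5: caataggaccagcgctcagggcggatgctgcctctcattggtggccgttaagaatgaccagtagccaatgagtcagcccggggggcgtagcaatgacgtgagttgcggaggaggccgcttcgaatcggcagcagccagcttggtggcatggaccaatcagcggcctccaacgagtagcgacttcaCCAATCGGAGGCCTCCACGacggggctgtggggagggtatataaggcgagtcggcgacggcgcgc
Hsp90b1: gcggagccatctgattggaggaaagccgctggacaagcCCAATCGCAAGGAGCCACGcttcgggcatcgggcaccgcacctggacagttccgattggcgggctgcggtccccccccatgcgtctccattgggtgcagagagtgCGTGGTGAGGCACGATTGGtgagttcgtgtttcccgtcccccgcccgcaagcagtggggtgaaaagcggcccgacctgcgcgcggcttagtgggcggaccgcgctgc
Derl3: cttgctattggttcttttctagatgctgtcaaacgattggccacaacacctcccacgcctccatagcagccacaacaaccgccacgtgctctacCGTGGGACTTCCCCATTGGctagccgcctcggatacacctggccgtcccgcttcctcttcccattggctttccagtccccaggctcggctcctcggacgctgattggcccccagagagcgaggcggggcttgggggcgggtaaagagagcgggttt

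A CARE match was present in 5 of 13 ATF4 targets (38.5%), namely Asns, Chac1, Nupr1, Pycr1 and Trib3, against 4.51% of all 27025 promoters of the same length. In Trib3 the match began 15 bases after the start site. None of the 12 chaperones with a promoter held it. The ERSE was found in 7 of those 12 chaperones (58.3%: Calr, Canx, Creld2, Dnajc3, Hsp90b1, Hspa5 and Pdia6), in Derl3 and in Syvn1, and in 0.137% of all promoters. No ATF4 target held an ERSE. The rarer ERSE-II, in 0.0444% of all promoters, was in Dnajb11 and Herpud1, and Herpud1 was the 1 gene of the 38 with both a CARE and an ER stress element. The UPRE core, in 0.714% of all promoters, was in none of the 38 windows. A match describes letters in a window and does not show binding.

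The first comparison asked how these genes differed between mCherry-positive and mCherry-negative cells, averaged over the 3 vectors. Transcripts of both arms were lower in the positive fraction: 26 of the 42 genes were lower at an adjusted p under 0.05 in edgeR's quasi-likelihood test and 1 gene, Derl2, was higher. Of all genes tested, 33.6% passed in either direction, 17.6% higher and 16.0% lower. The median log2 fold change (positive against negative) was -0.37 over the 42 genes and -0.03 over all genes tested, and 38 of the 42 values were negative. The genes that fell included 10 of the 13 ATF4 targets, the regulators Ddit3 and Atf4 and the chaperones Hsp90b1, Hyou1 and Manf, and the ER membrane protein Derl3 fell most of the 42. In bulk RNA of sorted cells, fewer cells of a type and less RNA per cell cannot be told apart.

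**Figure D1:**
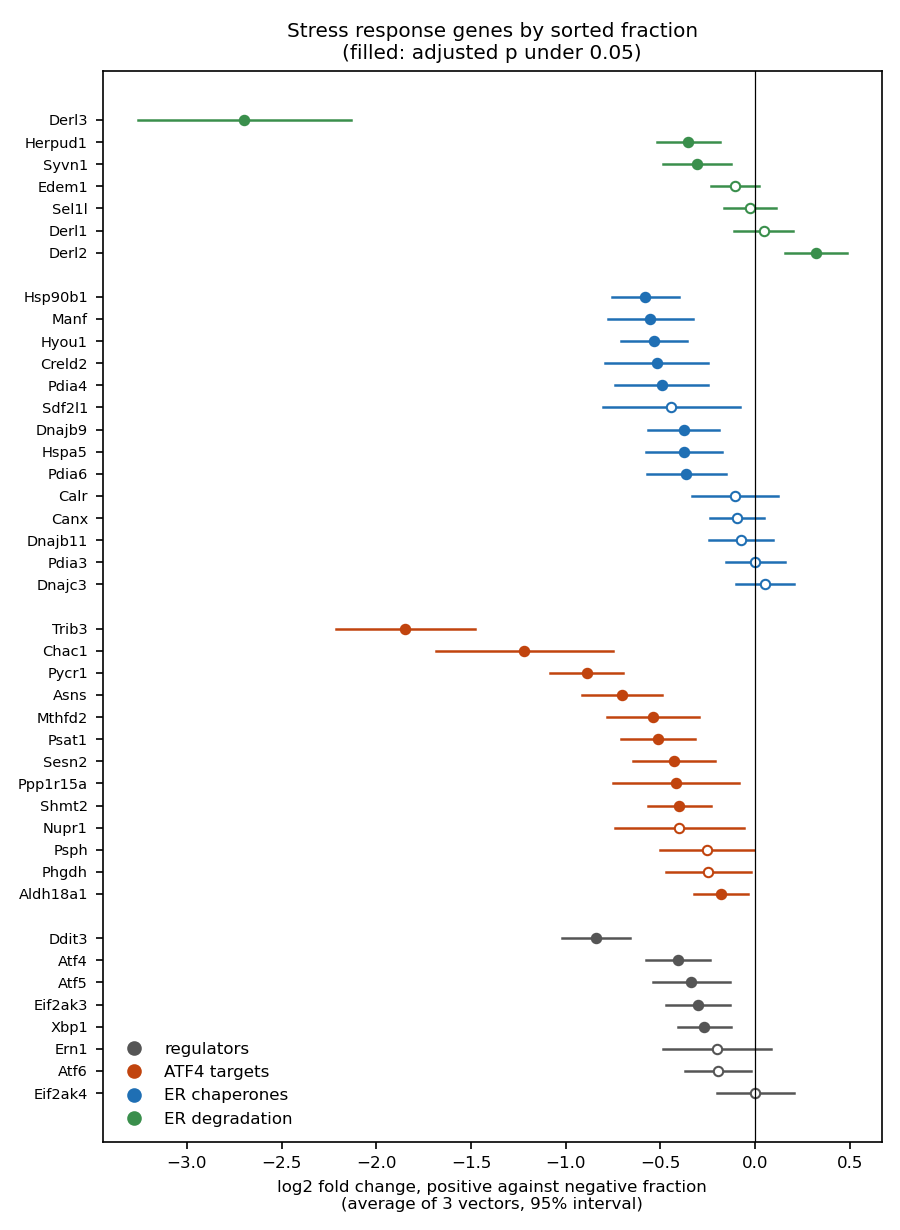
The log2 fold change of each of the 42 genes between the positive and the negative fraction, averaged over the 3 vectors, with its 95% interval; genes are ordered within the 4 role lists and filled points passed an adjusted p of 0.05. All 13 ATF4 targets lie left of 0, the 8 filled chaperones span a narrower range, and Derl3 and Derl2 lie at opposite ends of the degradation list.

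The composition of the 2 fractions differed at the same time. All 8 macrophage markers were higher in the positive fraction, with a summed level of 185 to 401 CPM (median 283) in the positive and 4.6 to 12.2 CPM (median 6.14) in the negative libraries. All 8 stroma markers were higher as well (summed level 4556 to 7683 against 3111 to 3836 CPM), as were 6 of 8 smooth muscle markers (362 to 1009 against 182 to 283 CPM), with Des lower. All 6 nephron progenitor markers were lower (383 to 523 against 375 to 874 CPM), and so were 6 of 7 tested ureteric bud markers (52.9 to 90.2 against 84.9 to 148 CPM). Of the differentiating nephron markers 4 of 5 were lower (76.7 to 116 against 102 to 238 CPM), endothelial markers split into 5 lower and 2 higher (141 to 255 against 182 to 302 CPM), and 4 of 6 erythroid markers were higher (205 to 1790 against 73.7 to 351 CPM). No marker was at 0 in all libraries. These shifts, and the lower depth of the positive libraries, moved with every fraction difference that follows, and their part in the results was not tested.

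Among the 8 regulators, 5 were lower in the positive fraction and none was higher. Ddit3, which encodes the pro-apoptotic factor CHOP, ranged from 16.2 to 21.8 CPM (median 16.9) in the 9 positive libraries and from 23.8 to 40.2 CPM (median 30.0) in the 9 negative ones. Every positive library was below every negative one, an order seen in 2.06% of all genes tested, while 6.65% had the reverse order. Its log2 fold change was -0.84 (SE 0.085, adjusted p = 3.32e-07), which is 1.79-fold lower.

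Atf4 messenger RNA itself was lower by less. The negative libraries of litters 1, 2 and 3 held 219, 236 and 276 CPM with scramble-shRNA, 256, 242 and 266 CPM with Mylk-shRNA, and 237, 235 and 265 CPM with Rock1/2-shRNA. The positive libraries in the same order held 184, 188 and 212 CPM, 183, 171 and 222 CPM, and 193, 179 and 213 CPM. The positive library was the lower one in each of the 9 cultures, a sign pattern found in 7.59% of all genes (15.2% had the opposite sign in each), although the highest positive library overlapped the lowest negative one. The log2 fold change was -0.41 (SE 0.081, adjusted p = 0.000670).

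Atf5, an ATF4-related factor, ranged from 116 to 175 CPM (median 157) in positive and 154 to 219 CPM (median 179) in negative libraries, a log2 fold change of -0.34 (SE 0.097, adjusted p = 0.0111). It was lower in all 9 cultures. Eif2ak3, the ER kinase of eIF2, was lower in all 9 too, with 14.7 to 22.1 CPM (median 18.6) against 19.2 to 24.1 CPM (median 22.1) and a log2 fold change of -0.30 (SE 0.080, adjusted p = 0.00666). For Xbp1, the splicing substrate of IRE1, positive libraries held 140 to 180 CPM (median 156) and negative libraries 158 to 206 CPM (median 181), and 8 of 9 cultures had the lower value in the positive fraction (log2 fold change -0.27, SE 0.067, adjusted p = 0.00409). The counts are per gene, so spliced and unspliced Xbp1 were not separated.

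The other sensors did not pass the test. Atf6 had a log2 fold change of -0.20 (95% interval -0.37 to -0.02) and Ern1 of -0.20 (-0.49 to 0.08). The amino acid sensor Eif2ak4 lay at 0.00 (-0.20 to 0.20), with 18.1 to 34.5 CPM in positive and 21.9 to 32.7 CPM in negative libraries, so its fractions overlapped throughout.

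**Figure D2:**
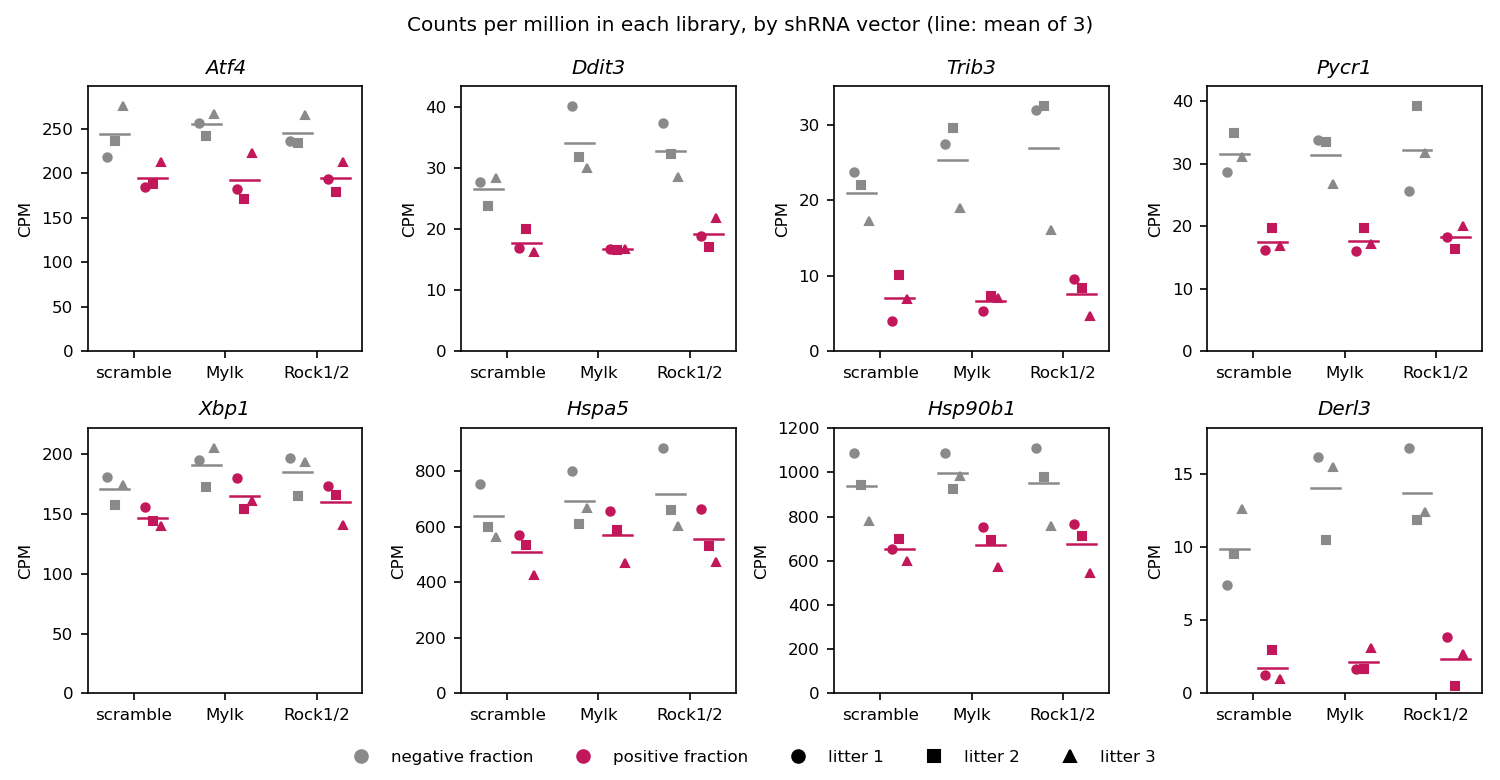
The CPM of 8 of the genes in each of the 18 libraries, by vector, fraction (colour) and litter (symbol), with the group mean as a line; axes start at 0. Positive libraries of Ddit3, Trib3, Pycr1 and Derl3 lie below all negative ones, whereas those of Atf4, Xbp1, Hspa5 and Hsp90b1 overlap with the negative range.

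Of the 13 ATF4 targets, 10 were lower in the positive fraction and none was higher, with a median log2 fold change of -0.43. Trib3, a pseudokinase that restrains ATF4 and is itself induced by it, showed the largest difference of the list. Negative libraries of litters 1, 2 and 3 held 23.7, 22 and 17.2 CPM with scramble-shRNA, 27.5, 29.6 and 19 CPM with Mylk-shRNA, and 31.9, 32.5 and 16.1 CPM with Rock1/2-shRNA. Positive libraries held 4.08, 10.1 and 6.98 CPM, 5.38, 7.39 and 7.05 CPM, and 9.61, 8.40 and 4.65 CPM. No positive library reached the lowest negative one, and the difference was 3.6-fold (log2 fold change -1.85, SE 0.175, adjusted p = 2.09e-07).

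Pycr1 and Asns also separated the fractions without overlap. Pycr1, the last enzyme of proline synthesis, ranged from 16.0 to 20.1 CPM (median 17.2) in positive and from 25.7 to 39.3 CPM (median 31.8) in negative libraries, a log2 fold change of -0.89 (SE 0.092, adjusted p = 4.22e-07). Asns, asparagine synthetase, ranged from 32.7 to 49.6 CPM (median 44.1) against 54.4 to 82.9 CPM (median 61.9), a log2 fold change of -0.71 (SE 0.101, adjusted p = 2.17e-05). Aldh18a1, which acts upstream of Pycr1 in proline synthesis, was lower by much less (log2 fold change -0.18, SE 0.068, adjusted p = 0.0464), in 6 of 9 cultures, with ranges that overlapped. Its call was lost in 17 of 25 alternative settings.

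Chac1 degrades glutathione and held as few as 8 counts in a library. It ranged from 2.56 to 6.88 CPM (median 4.12) in positive and 4.20 to 16.1 CPM (median 9.40) in negative libraries, lower in the positive fraction of all 9 cultures but with overlapping ranges. The log2 fold change was -1.22 (SE 0.221, adjusted p = 0.000308), the second largest of the list.

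Serine and one-carbon enzymes moved by smaller amounts. Psat1, the transaminase of serine synthesis, ranged from 58.7 to 83.4 CPM (median 62.2) against 74.4 to 119 CPM (median 93.3), a log2 fold change of -0.51 (SE 0.094, adjusted p = 0.000281). The mitochondrial folate enzyme Shmt2 ranged from 92.3 to 117 CPM (median 107) against 93.2 to 158 CPM (median 138), with a log2 fold change of -0.40 (SE 0.079, adjusted p = 0.000601). Psat1 was lower in all 9 cultures and Shmt2 in 8. Mthfd2, the next enzyme of that folate route, had a log2 fold change of -0.54 (SE 0.115, adjusted p = 0.00124), and the stress sensor Sesn2 one of -0.43 (SE 0.103, adjusted p = 0.00311).

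Phgdh and Psph, the enzymes before and after Psat1 in serine synthesis, did not pass without a litter term. Their log2 fold changes were -0.25 (adjusted p = 0.0841) and -0.25 (adjusted p = 0.108). With litter as a block both passed (adjusted p = 0.0217 and 0.0185), as did Nupr1, a small stress-induced chromatin protein, at -0.40 without the block (adjusted p = 0.0650) and -0.45 with it (adjusted p = 0.0122). Ppp1r15a, the phosphatase subunit GADD34 that reverses eIF2 phosphorylation, lay at the threshold (log2 fold change -0.42, SE 0.157, adjusted p = 0.0496) and lost its call in 14 of 25 alternative settings. Its 2 fractions nonetheless had the same order in all 9 cultures.

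Of the 14 ER chaperones, 8 were lower in the positive fraction and none was higher, with a median log2 fold change of -0.38. Hsp90b1 (GRP94), the ER member of the HSP90 family, ranged from 545 to 768 CPM (median 695) in positive and 759 to 1111 CPM (median 979) in negative libraries. It was lower in the positive fraction of all 9 cultures, by 1.5-fold on average (log2 fold change -0.58, SE 0.084, adjusted p = 2.57e-05). Hyou1, a nucleotide exchange factor for BiP, ranged from 41.7 to 65.8 CPM (median 56.1) against 60.8 to 85.2 CPM (median 80.3), a log2 fold change of -0.53 (SE 0.083, adjusted p = 5.65e-05).

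Hspa5 encodes BiP, the HSP70 of the ER whose message is the common readout of this arm. Negative libraries of litters 1, 2 and 3 held 753, 600.0 and 564 CPM with scramble-shRNA, 801, 611 and 667 CPM with Mylk-shRNA, and 884, 661 and 604 CPM with Rock1/2-shRNA. Positive libraries held 571, 534 and 427 CPM, 656, 587 and 470 CPM, and 665, 532 and 474 CPM. Within each culture the positive library was lower, but the fractions overlapped across litters, since positive libraries of litter 1 reached levels of negative libraries of litters 2 and 3. The log2 fold change was -0.38 (SE 0.095, adjusted p = 0.00471).

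The secreted ER proteins Manf and Creld2, both induced by ER stress, were also lower in all 9 cultures. Manf ranged from 151 to 211 CPM (median 174) against 173 to 336 CPM (median 237), a log2 fold change of -0.55 (SE 0.107, adjusted p = 0.000503). Creld2 ranged from 30.1 to 44.8 CPM (median 34.1) against 32.6 to 75.6 CPM (median 46.9), a log2 fold change of -0.52 (SE 0.129, adjusted p = 0.00441). Among the disulfide isomerases, Pdia4 had a log2 fold change of -0.49 (SE 0.117, adjusted p = 0.00303; 193 to 325 against 253 to 420 CPM) and Pdia6 one of -0.36 (SE 0.100, adjusted p = 0.00858). The BiP co-chaperone Dnajb9 ranged from 32.7 to 48.7 CPM (median 39.2) against 34.3 to 63.0 CPM (median 47.5), lower in 8 of 9 cultures (log2 fold change -0.38, SE 0.089, adjusted p = 0.00271).

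The calnexin cycle and the remaining co-chaperones did not pass. The glycoprotein chaperones Calr and Canx had log2 fold changes of -0.11 (95% interval -0.33 to 0.12) and -0.09 (-0.24 to 0.05), and their partner isomerase Pdia3 had 0.00 (-0.16 to 0.16). Dnajb11 was at -0.07 (-0.24 to 0.10) and Dnajc3 at 0.05 (-0.10 to 0.20). Sdf2l1, a component of the BiP complex, was at -0.44 (-0.80 to -0.08, adjusted p = 0.0550) without the litter block and passed with it (adjusted p = 0.000182).

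The 7 degradation genes did not move as a set: 3 were lower, 1 was higher and the median log2 fold change was -0.11. Derl3 encodes a derlin, a membrane protein through which misfolded chains leave the ER. Its negative libraries of litters 1, 2 and 3 held 7.42, 9.53 and 12.6 CPM with scramble-shRNA, 16.2, 10.5 and 15.5 CPM with Mylk-shRNA, and 16.8, 11.9 and 12.4 CPM with Rock1/2-shRNA. The positive libraries held 1.24, 2.95 and 0.951 CPM, 1.66, 1.67 and 3.10 CPM, and 3.84, 0.473 and 2.69 CPM. The fractions did not overlap, although the lowest library rested on 3 counts. The difference was 6.48-fold (log2 fold change -2.70, SE 0.267, adjusted p = 3.64e-07).

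Its paralog Derl2 was the only one of the 42 genes higher in the positive fraction. Derl2 ranged from 23.4 to 31.9 CPM (median 26.5) in positive and 16.8 to 25.7 CPM (median 20.9) in negative libraries, higher in 8 of 9 cultures (log2 fold change 0.32, SE 0.077, adjusted p = 0.00333). Derl1, the remaining derlin, lay at 0.04 (95% interval -0.11 to 0.20). The 3 derlins thus had values of opposite sign or near 0 in the same libraries.

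Herpud1, a scaffold of the degradation complex, ranged from 53.1 to 72.2 CPM (median 59.8) against 59.5 to 94.8 CPM (median 71.5), lower in 8 of 9 cultures (log2 fold change -0.35, SE 0.079, adjusted p = 0.00191). The ubiquitin ligase Syvn1 ranged from 26.5 to 40.7 CPM (median 37.5) against 35.8 to 46.8 CPM (median 43.1), with a log2 fold change of -0.31 (SE 0.085, adjusted p = 0.00881). Its partner Sel1l (-0.03, 95% interval -0.17 to 0.11) and the mannosidase-like Edem1 (-0.11, -0.23 to 0.02) did not pass.

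The ATF4 targets and the chaperones were then set side by side, as a description. Single ATF4 targets reached larger differences, up to 3.6-fold against 1.5-fold for the chaperones, but the medians of the lists were close at -0.43 and -0.38. Taken culture by culture, the list median ran from -0.68 to -0.29 over the 9 cultures for ATF4 targets and from -0.46 to -0.23 for chaperones, so the ranges overlapped. Both were below 0 in 9 of 9 cultures, as was the median of the regulators, while that of the degradation genes was below 0 in 7 of 9. The ATF4 targets with a CARE match had a median of -0.89 (5 genes) and those without one -0.41 (8 genes). Chaperones with an ERSE had a median of -0.36 (7 genes) and those without one -0.38 (5 genes).

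Between libraries the lists differed in how cleanly they divided the fractions. How often other lists of such size divide the fractions without overlap was not counted. After each gene was centred on its own mean over the libraries, the median of the ATF4 targets ran from -0.41 to -0.16 (log2 CPM) in positive and 0.13 to 0.46 in negative libraries, without overlap. The regulators ran from -0.29 to -0.06 and from 0.04 to 0.31, also without overlap. The degradation genes ran from -0.23 to 0.08 and from -0.09 to 0.17, with overlap. The chaperones ran from -0.43 to 0.06 and from -0.12 to 0.47, and overlapped. The overlap of the chaperones lay between litters. The negative libraries of litter 3 held chaperone medians of -0.12 to 0.06, and the positive libraries of litter 1 held -0.12 to 0.06 as well.

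**Figure D3:**
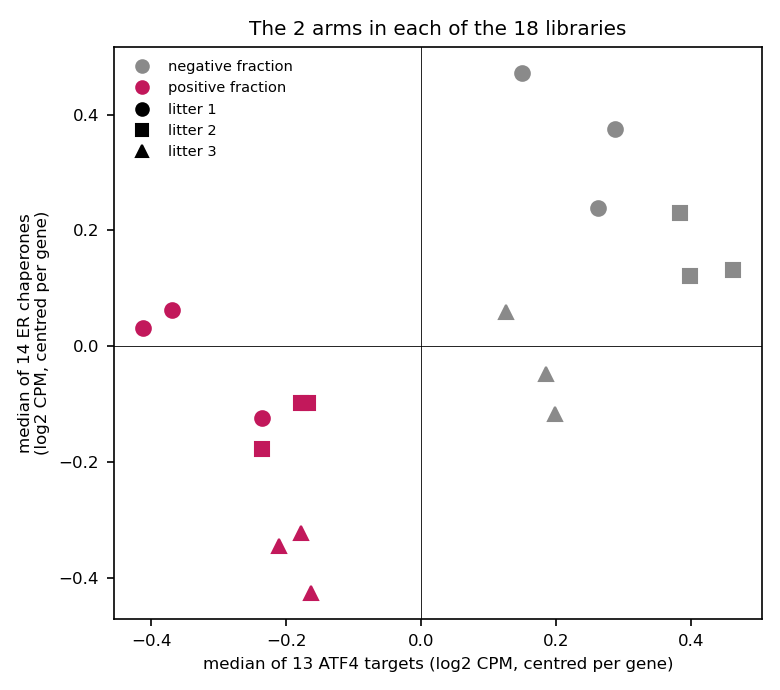
Each of the 18 libraries placed by the median centred log2 CPM of the 13 ATF4 targets (horizontal) and of the 14 ER chaperones (vertical), with colour for fraction and symbol for litter. The fractions separate on the horizontal axis without overlap, and the litters spread along the vertical axis, with litter 3 lowest within each fraction.

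Taken 1 vector at a time, the fraction differences had the same direction with fewer calls. With scramble-shRNA 9 of the 42 genes passed (8 lower and Derl2 higher), where 12.3% of all genes passed (7.43% higher and 4.85% lower). With Mylk-shRNA 10 genes were lower (background 13.2%, with 8.07% higher and 5.14% lower) and with Rock1/2-shRNA 10 genes were lower (background 11.2%, with 6.94% higher and 4.30% lower). Lower in each of the 3 vectors were 7 of the 42 genes, Asns, Ddit3, Derl3, Hsp90b1, Hyou1, Pycr1 and Trib3, against 2.49% of all genes tested. Of these, Derl3, Pycr1 and Trib3 kept their calls in all 14 alternative settings for each vector. Hyou1 lost its call in 3, 5 and 7 of 14 settings for scramble-shRNA, Mylk-shRNA and Rock1/2-shRNA. Hsp90b1 lost its call in 3 for scramble-shRNA and 5 for Rock1/2-shRNA, Asns in 2 for each vector and Ddit3 in 1 for scramble-shRNA. Atf4 passed with Mylk-shRNA (log2 fold change -0.47, adjusted p = 0.0330), a call lost in 7 of 14 alternative settings. With each of the other vectors Atf4 had -0.38 (adjusted p = 0.0941 and 0.0974).

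These counts were higher with a litter term. With litter as a block, 21, 26 and 23 of the 42 genes passed for scramble-shRNA, Mylk-shRNA and Rock1/2-shRNA, where 23.3%, 24.3% and 20.4% of all genes passed. For the average of the vectors 31 passed, against 45.8% of all genes. Hspa5, Pdia4, Pdia6, Atf5, Mthfd2 and Ppp1r15a gained calls in all 3 vectors under the block. Hspa5 then had log2 fold changes of -0.37, -0.35 and -0.41 (adjusted p = 0.00575, 0.00760 and 0.00280). Without the block the counts also rested on single libraries: leaving out the scramble-shRNA positive library of litter 1 or negative library of litter 2 left 4 and 5 calls, where 8.25% and 7.04% of all genes passed. For Mylk-shRNA 6 and 5 calls were left without the negative libraries of litters 1 and 2 (8.98% and 9.38% of all genes). For Rock1/2-shRNA 6 calls were left without the positive library of litter 1, the positive library of litter 3 or the negative library of litter 2 (7.24%, 8.39% and 7.31% of all genes). The 4 calls with scramble-shRNA were thus a share of the 42 genes near that of all genes called in either direction. In that fit 976 of 17431 genes were higher and 462 lower.

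The second question was whether either knockdown vector changed these genes. None of the 42 passed for Mylk-shRNA or Rock1/2-shRNA against scramble-shRNA, or for the 2 knockdown vectors against each other, in either fraction. The background was 0% in all 6 comparisons, so the same held for all 16544 genes, with edgeR and with DESeq2. The scramble-shRNA libraries served as controls for both knockdown vectors, so their values are not independent of each other. In the positive fraction no member had an unadjusted p under 0.05 by either tool. The largest difference there was in Psph, 1.34-fold lower with Mylk-shRNA than with Rock1/2-shRNA (log2 fold change -0.42, 95% interval -0.87 to 0.02).

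The genes with the smallest p against scramble-shRNA in the positive fraction were Eif2ak4, Derl1 and Xbp1 for Mylk-shRNA and Eif2ak4, Syvn1 and Mthfd2 for Rock1/2-shRNA. Eif2ak4 had log2 differences of 0.25 (95% interval -0.11 to 0.61) and 0.27 (-0.09 to 0.63). Derl1 and Xbp1 had 0.18 (-0.09 to 0.45) and 0.15 (-0.09 to 0.40) with Mylk-shRNA. Syvn1 and Mthfd2 had 0.22 (-0.10 to 0.54) and -0.25 (-0.68 to 0.18) with Rock1/2-shRNA. Every one of these intervals included 0. After Psph, the smallest p between the knockdown vectors were those of Edem1 (0.15, -0.07 to 0.37) and Ddit3 (-0.21, -0.54 to 0.12).

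In the negative fraction Ddit3 came first for both knockdown vectors. It averaged 26.6 ± 2.41 CPM with scramble-shRNA, 34.0 ± 5.43 CPM with Mylk-shRNA and 32.7 ± 4.45 CPM with Rock1/2-shRNA (SD, n = 3). The highest scramble-shRNA library held 28.3 CPM and the lowest Rock1/2-shRNA library 28.6 CPM. How many of all genes tested had such an order of 3 against 3 libraries was not counted. The log2 differences were 0.37 (SE 0.139, unadjusted p = 0.0159) and 0.31 (SE 0.139, unadjusted p = 0.0389), neither of which passed after adjustment (adjusted p = 1.00 for both). With DESeq2 1 of the 42 genes had an unadjusted p under 0.05 for Mylk-shRNA and none for Rock1/2-shRNA. Derl2 was next in both comparisons (0.26, 95% interval -0.02 to 0.54, and 0.23, -0.05 to 0.51), then Aldh18a1 for Mylk-shRNA (-0.20, -0.45 to 0.04) and Dnajb9 for Rock1/2-shRNA (0.24, -0.08 to 0.55). Between the knockdown vectors Ern1 (0.28, -0.19 to 0.75), Phgdh (-0.16, -0.53 to 0.22) and Edem1 (0.08, -0.13 to 0.29) had the smallest p.

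The difference of the fraction effect between a knockdown vector and scramble-shRNA was tested directly, and no member passed for either vector (background 0% in both). Ddit3 fell by 1.09 on the log2 scale in the positive fraction of Mylk-shRNA cultures and by 0.61 in scramble-shRNA cultures, a difference of -0.48 (SE 0.209, unadjusted p = 0.0324, adjusted p = 1.00). It was the 1 member with an unadjusted p under 0.05 for Mylk-shRNA by edgeR, and none had one for Rock1/2-shRNA. Derl2 had differences of -0.31 (95% interval -0.71 to 0.09) and -0.37 (-0.77 to 0.03), and Eif2ak4 of 0.33 (-0.17 to 0.82) and 0.38 (-0.12 to 0.88), for Mylk-shRNA and Rock1/2-shRNA. Sel1l followed for Rock1/2-shRNA at 0.23 (-0.11 to 0.56). Over the 14 chaperones, the largest difference between a knockdown vector and scramble-shRNA was 1.15-fold in the positive and 1.23-fold in the negative fraction. For the 13 ATF4 targets those values were 1.27-fold in both fractions.

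**Figure D4:**
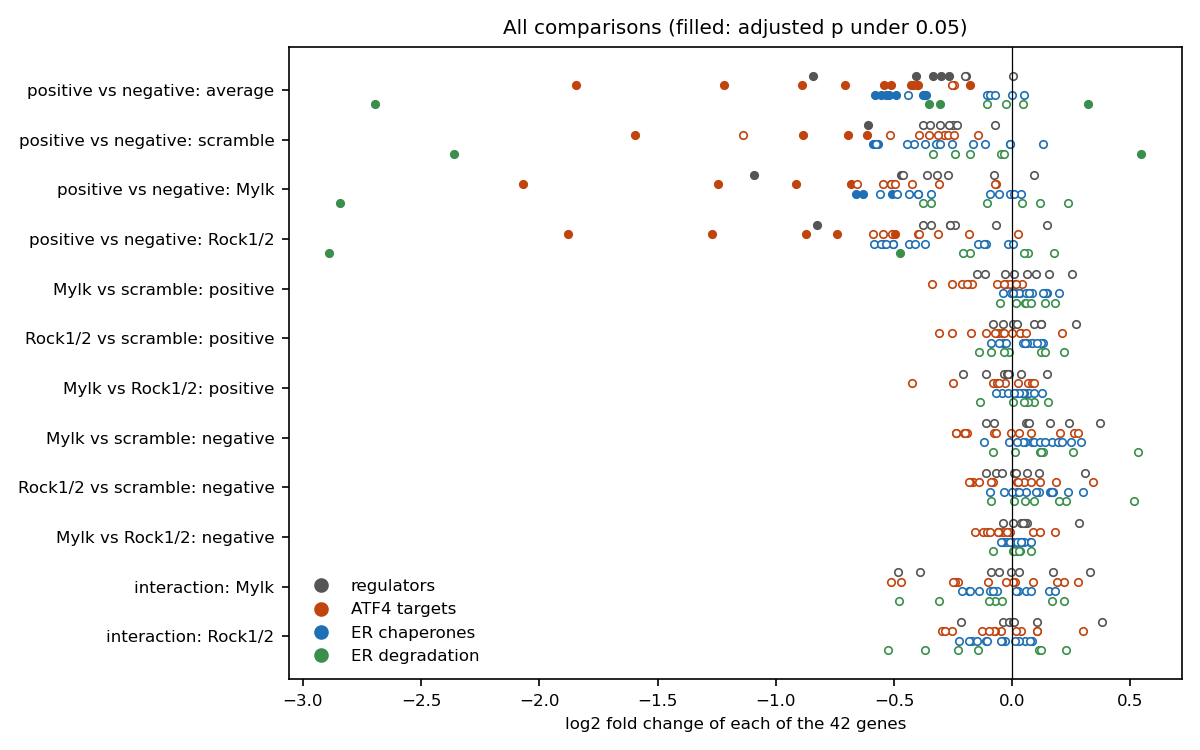
The log2 fold change of each of the 42 genes in the 12 comparisons, in 4 rows of points per comparison for the role lists; filled points passed an adjusted p of 0.05. Filled points occur in the 4 comparisons of positive with negative cells, and the 8 comparisons that involve a vector difference have none.

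Litter was the other source of spread, described here without a test because each litter is a single batch of animals. Litter 3 had a mitochondrial share of counts of 6.68% ± 1.73 (SD, n = 6), against 3.02% ± 0.577 (SD, n = 12) in litters 1 and 2. Its part in the litter values below was not tested. Of the 14 chaperones, 5 were lowest in litter 3 in all 6 groups (35.7%), namely Calr, Dnajb11, Pdia3, Pdia4 and Pdia6, where 9.20% of all genes tested had that order. None of the 13 ATF4 targets had it, in either direction. The order was not particular to the chaperones. It was also seen in 3 of 8 stroma markers (37.5%) and 7 of 22 other genes of ER folding and transport (31.8%). Of 18 other genes of the integrated stress response 3 had it (16.7%), against 0 of 12 transfer RNA synthetases and 0 of 12 other degradation genes. The median difference of litter 3 from the mean of litters 1 and 2 was -0.26 (log2 CPM) over the chaperones, with 13 of 14 below 0, -0.09 over the ATF4 targets and -0.01 over all genes.

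Pdia4 showed the largest litter difference among the chaperones. Its positive libraries of litters 1, 2 and 3 held 249, 255 and 193 CPM with scramble-shRNA, 291, 325 and 199 CPM with Mylk-shRNA, and 283, 269 and 202 CPM with Rock1/2-shRNA. Its negative libraries held 395, 364 and 253 CPM, 408, 361 and 253 CPM, and 420, 358 and 256 CPM. Negative libraries of litter 3 were thus within the range of positive libraries of litters 1 and 2. Sdf2l1 followed with a median difference of -0.47, lowest in litter 3 in 5 of 6 groups.

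Atf4 went the other way. It was highest in litter 3 in all 6 groups, a pattern of 7.05% of all genes, with 243 ± 29.7 CPM (SD, n = 6) against 210 ± 30.0 CPM (SD, n = 12) and a median log2 difference of 0.25. Eif2ak4 was lowest in litter 3 in all 6 groups, with 22.3 ± 2.28 against 28.9 ± 3.45 CPM and a median difference of -0.27. The targets did not follow Atf4 in 1 direction: Trib3 had a median difference of -0.43 and was lowest in litter 3 in 4 of 6 groups, and Nupr1 had 0.32 and was highest in 3. Of the degradation genes, Derl3 (0.47, range -0.83 to 0.88 over the groups) and Derl1 (-0.27, range -0.35 to -0.04) had the largest differences.

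The chaperones Hspa5, Calr and Sdf2l1 were highest in litter 1 in all 6 groups, an order that 2.07% of all genes tested had. Their median differences there from the other litters were 0.31, 0.35 and 0.58. Ppp1r15a, of the ATF4 targets, had the same order. Its median difference there from the other litters was 0.52, with 59.5, 58.7 and 56.7 CPM in the positive libraries of scramble-shRNA, Mylk-shRNA and Rock1/2-shRNA and 63.9, 75.3 and 71.1 CPM in the negative ones. In litters 2 and 3 it ranged from 32.2 to 55.7 CPM. The summed level of 12 early genes known to rise on tissue dissociation was 3910 to 5557 CPM in litter 1, 1185 to 1373 CPM in litter 2 and 1841 to 2163 CPM in litter 3, and its part in the Ppp1r15a values was not tested.

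**Figure D5:**
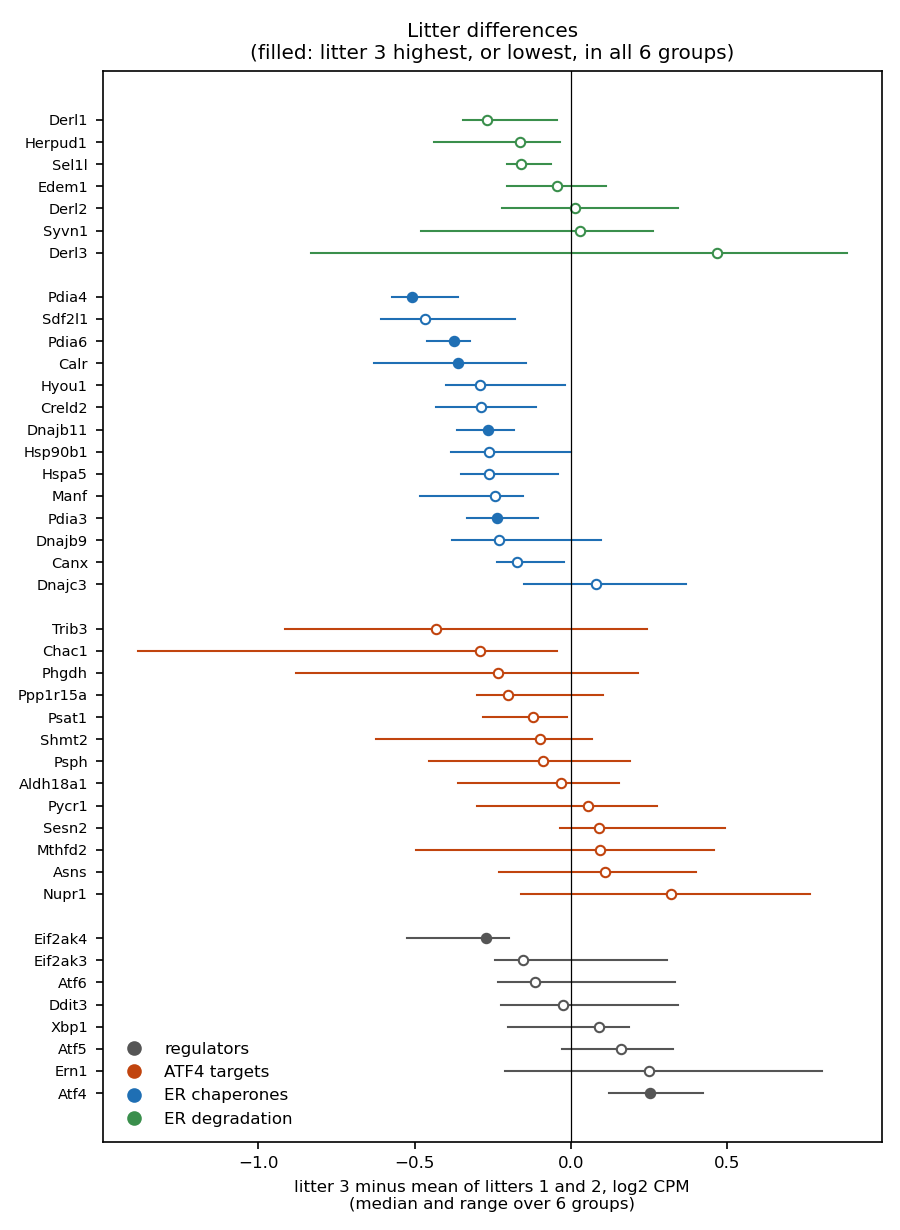
For each of the 42 genes, the difference in log2 CPM between litter 3 and the mean of litters 1 and 2, as the median (point) and range (line) over the 6 groups; filled points mark genes for which litter 3 was highest, or lowest, in all 6 groups. Of the chaperones 13 of 14 medians lie left of 0, with 5 filled points, and Atf4 and Eif2ak4 are the filled regulators on either side of 0.

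Further genes of the 2 pathways, taken from lists chosen by role, were examined in the fraction comparison. Of all genes tested, 17.6% were higher and 16.0% lower in that comparison, which is the background for each list. Of 18 other genes of the integrated stress response, 11 were lower and 2 higher in the positive fraction, with a median log2 fold change of -0.32. The 4 with the smallest p were the lipoprotein receptor Vldlr (-0.66, SE 0.072), the cysteine-producing enzyme Cth (-1.24, SE 0.153), the secreted glycoprotein Stc2 (-1.86, SE 0.214) and the ATF4 dimer partner Cebpg (-0.43, SE 0.059). Stc2 ranged from 9.55 to 24.0 CPM (median 15.7) in positive and 33.9 to 81.9 CPM (median 61.9) in negative libraries, and Cth from 10.2 to 15.9 CPM (median 13.1) against 17.6 to 39.3 CPM (median 31.4). All 4 had fractions that did not overlap, with the positive one below, an order of 2.06% of all genes tested. Genes picked for a small p favour such an order. The 2 higher genes, named after their values were seen, were the eIF2 kinase PKR, Eif2ak2 (0.77, SE 0.122), and the AP-1 family factor Jdp2 (0.33, SE 0.111).

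Of 12 cytosolic transfer RNA synthetases, known as ATF4-responsive genes, 6 were lower, none was higher and all 12 log2 fold changes were negative. The background of genes called lower was 16.0%, here and for the next list. By deposited CPM, Aars1, Tars1 and Yars1 were each higher in the positive fraction in 5 of 9 cultures and lower in 4. Eprs1 (log2 fold change -0.46, SE 0.070), Sars1 (-0.36, SE 0.061), Lars1 (-0.39, SE 0.080) and Iars1 (-0.32, SE 0.076) had the smallest p. Of 22 other genes of ER folding and transport 6 were lower and none was higher, with a median of -0.12. The oxidoreductase Ero1a, which supplies disulfide bonds, ranged from 36.6 to 78.3 CPM (median 58.7) in positive and 113 to 228 CPM (median 178) in negative libraries (log2 fold change -1.68, SE 0.166). The collagen prolyl hydroxylase subunit P4hb (-0.82, SE 0.090) and the isomerase Pdia5 (-0.77, SE 0.090) likewise had no overlap. That order was seen in 2.06% of all genes tested, and these genes too were picked for their small p. The oligosaccharyltransferase subunit Ostc was at -0.22 (SE 0.070), with overlap.

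Of 12 other degradation genes, Fam8a1 (-0.31, SE 0.059) and the ligase Rnf5 (-0.29, SE 0.086) were lower and none was higher, with a median of 0.08. That count was a share near the 16.0% of all genes tested that were lower. Cytosolic heat shock genes, which answer to another factor, HSF1, split into 4 higher and 4 lower of 12. Over all genes tested, 17.6% were higher and 16.0% lower. The co-chaperone Bag3 (0.57, SE 0.092) and the small heat shock protein Hspb1 (0.65, SE 0.141) were higher, and Hsp90aa1 (-0.34, SE 0.072) and Hsp90ab1 (-0.26, SE 0.072) lower. Of the 12 early genes of dissociation, Ier3 (-1.10, SE 0.234) was lower and none was higher. The fitted median of the early genes was 0.26. Taken culture by culture, their median ran from -0.25 to 0.57 and was below 0 in 3 of 9 cultures.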

How the data were processed

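RNA of sorted cells from cultured mouse kidneys was captured by poly(A), per the labels' protocols. The authors deposited 1 table that holds, for every gene in each library, a CPM value beside the estimated count. FastQC 0.12.1, fastp 0.24.0, STAR 2.7.11, SAMtools 1.22.1, MultiQC 1.32 and featureCounts of Subread 2.1.1 were used, with build GRCm39, per the submitters' processing notes. Settings, annotation and strandedness are not stated there, so reads of a gene and of an overlapping antisense gene may not be told apart. Between 22.1% and 27.4% of the nonzero deposited estimated counts in a library were not whole, and how shared reads were divided is not stated.

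Counts were rounded, 92 ERCC spike-in rows were left out, and all columns were mapped to samples by their labels. Genes were kept by edgeR's filterByExpr (minimum count 10, total 15). After TMM scaling, a single edgeR quasi-likelihood model held 1 mean for each group and left 12 residual degrees of freedom over the 18 libraries. The biological coefficient of variation, common to all genes, was 0.165. Benjamini-Hochberg adjustment of p ran over 16544 genes in each of 12 comparisons, with a threshold of 0.05. "Higher", "lower" and "passed" refer to this test. Intervals are 95% intervals of the fit, and levels, and the order of fractions, are from the deposited CPM. Litter orders, litter differences and centred medians use CPM after TMM, on the log2 scale with a prior count of 2. The median SE was 0.112 over all genes tested for the average fraction comparison, and 0.198 for the positive fraction of Mylk-shRNA set against scramble-shRNA. DESeq2 1.42.0, edgeR 4.0.16 and limma 3.58.1 ran under R 4.3.3. The scripts were tested on simulated data.

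The genes, their role lists, the other gene lists and the tests were chosen with earlier results of these data known. All 42 genes are accounted for. Picked for closer description were up to 6 genes per role list with the smallest p, and Atf4, Ddit3, Xbp1 and Hspa5. Added were the 3 genes with the smallest p in each vector comparison and up to 4 genes of every other list. The 2 genes per role list with the largest litter 3 difference were added as well. Their values are given as levels by library, as ranges over libraries or as fold changes alone.

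Replicates are litters, as the labels state. Deviations from the group means correlated with r = 0.237 to 0.639 over the 45 pairs of libraries from 1 litter and -0.544 to 0.310 over the 90 pairs from different litters, so litter was also fitted as a block. Other alternatives were DESeq2's size factors, library totals without TMM, the DESeq2 test, no low-count filter, only the groups compared, the pooled culture as a block, no litter 3, and each library left out in turn.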

Additional observations from a re-analysis of the deposited data

Results flagged for a closer look

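Outside the 42 genes, the 92 spike-in transcripts listed in the table received counts. Their total was 8 to 31 counts per library. Each library, up to the highest with 31 counts, lies above 3 counts, the upper limit that an observed count of 0 would leave. The sources used here do not say whether spike-in RNA was added. These counts entered no comparison.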

How the results depend on the processing

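None of the calls in the fraction comparisons reversed in sign under any of the alternatives that were run. Genes without a call, including all those of the vector comparisons, were not checked for a reversal. In the average fraction comparison 25 to 31 of the 42 genes passed. The calls of Aldh18a1 and Ppp1r15a were lost in 17 and 14 of 25 alternatives, and those of Xbp1 and Syvn1 in 1 each; the other 23 held in all of them. With litter as a replicate block 21, 26 and 23 genes passed for scramble-shRNA, Mylk-shRNA and Rock1/2-shRNA, and with the pooled culture as a block 19, 25 and 23 (21%, 22.2% and 18.3% of all genes). Without litter 3 the counts were 14 for scramble-shRNA, 16 for Mylk-shRNA and 13 for Rock1/2-shRNA, and 26 for the average (16.7%, 17.7%, 12.1% and 38% of all genes). Scaled by library totals without TMM, 5 genes passed for Rock1/2-shRNA, all of them lower. That share was near the 10.6% of all genes that passed in either direction in that fit, 1233 higher and 517 lower of 16544. Leaving out 1 library at a time gave 4 to 12 calls for scramble-shRNA, 5 to 12 for Mylk-shRNA, 6 to 9 for Rock1/2-shRNA and 25 to 28 for the average, and medians of -0.49 to -0.41 for ATF4 targets and -0.41 to -0.32 for chaperones. The counts for the vector comparisons and the differences of the fraction effect stayed at 0 to 0 in these fits and at 0 under each other alternative. The cause of these movements was not tested. Over all genes, the average comparison called 2909 higher and 2649 lower with TMM, and 3299 higher and 1955 lower with library totals alone. Positive libraries were shallower, and Derl3 and Chac1 had as few as 3 and 8 counts in a library, so their single values are uncertain.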
